A study of Saccharomyces cerevisiae with 10 samples.

Results

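The effect of growth medium on the transcriptome was examined in Saccharomyces cerevisiae strains of the S288C background labelled htl1Δ GALpr-HTL1. One polyadenylated RNA library came from cells in YPGR, a galactose-raffinose medium, and 1 from cells in YPD, a glucose medium. Both cultures had first reached saturation in YPGR, were washed, and were then kept in logarithmic phase for another 10 generations in the medium named. The strains were segregants from the dissected tetrads of a heterozygote for an rsc mutation. HTL1 encodes a small subunit of RSC, a chromatin remodelling complex, and the GALpr-HTL1 construct by its label places HTL1 under a galactose-responsive promoter. A WT GALpr-HTL1 pair, grown in the same manner with 1 library per medium, served as the reference. All 4 libraries therefore carry the GALpr-HTL1 label, and the 2 pairs share no library.

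Genes were taken from the authors' deposited table that sets the YPGR library against the YPD library. Of 6816 rows that name a single gene, 6126 had the status OK and at least 5 FPKM (fragments per kilobase of transcript, scaled to the depth of the library) in 1 of the libraries. The measure is the log2 ratio of YPD over YPGR, with 1 FPKM added to each value. A gene is called higher or lower in YPD at a ratio of 2-fold or more, a rule of size only. With 1 library per side there is no replicate check, no spread and no test, and every ratio below describes these libraries.

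When glucose is present, yeast ferments it and represses genes for the use of other carbon sources. The repressor Mig1 carries much of this repression, and the Snf1 kinase relieves it when glucose is scarce. The activator Gal4 drives the galactose genes once the inhibitor Gal80 is relieved by Gal3. Glucose also signals through protein kinase A and TOR, which favour ribosome synthesis and restrain the stress programme driven by Msn2 and Msn4.

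The htl1Δ libraries differed in more than their medium. All 7 measured a-specific genes were higher in the YPD library and all 5 alpha-specific genes were lower. STE2, the receptor for alpha-factor, stood at 6.59 FPKM in YPGR and had a log2 ratio of 6.31, and STE3, the receptor for a-factor, stood at 169 FPKM in YPGR and 4.67 FPKM in YPD. The row HMRA1, whose sequence is shared with the a mating-type locus, was listed at 0 in YPGR and at 218 FPKM in YPD. The YPD library is thus a-type by its transcripts and the YPGR library alpha-type. MET17, a sulfhydrylase of methionine synthesis, was listed at 0 in YPGR and at 152 FPKM in YPD, and LYS2, of lysine synthesis, at 0.108 and 33.0 FPKM. In the WT pair MET17 was listed at 0 in both libraries and LYS2 at 0.0210 FPKM in YPGR and 0 in YPD. Medium and segregant cannot be told apart in the htl1Δ pair.

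HTL1 transcripts were present in both libraries labelled htl1Δ, at 2725 FPKM in YPGR and 242 FPKM in YPD. The WT libraries held 2815 and 572 FPKM. The level was lower in YPD in both pairs, with log2 ratios of -3.49 and -2.30. The HTL1 locus is only 237 bp long, and FPKM of so short a locus is unreliable. The libraries labelled htl1Δ therefore do not lack HTL1 RNA.

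Across the 6126 measured genes, 851 (13.9%) were at least 2-fold higher in YPD and 805 (13.1%) at least 2-fold lower. The ratios were centred near 0, with a median of -0.01 and an SD across genes of 1.16. At 4-fold or more, 206 genes were higher and 195 lower, and at 16-fold or more 31 were higher and 28 lower. Without the mating-type, pheromone-response and marker genes the counts were 838 and 796. The authors' deposited table calls 6 genes higher (0.0979%) and 8 genes lower (0.131%), with a lowest q-value of 0.0289, and 424 genes (6.92%) have an unadjusted p-value under 0.05 there. The 14 genes so called were GAL1, GAL7, GAL10, GAL2, GCY1, FIT3, JEN1 and TMA10, lower in YPD, and HXT2, HXT3, HXT4, STE2, MET17 and HMRA1, higher in YPD. From the steps between low FPKM values, about 9285000 fragments lie behind the YPGR library and 9346000 behind the YPD library. A gene of 1000 bp with 5 FPKM would thus rest on about 36.9 fragments in YPGR and 37.1 in YPD.

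**Figure D1:**
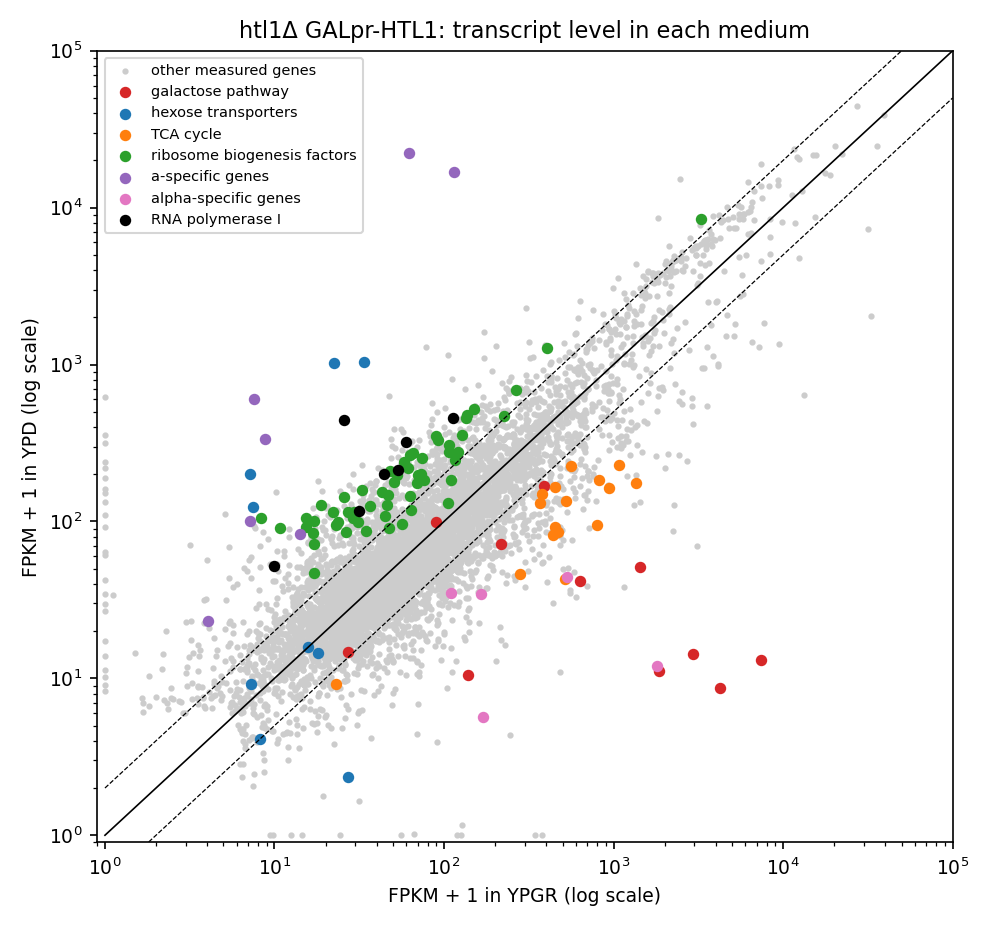
Level of each of the 6126 measured genes in the htl1Δ GALpr-HTL1 libraries, as FPKM + 1 in YPGR (x axis, log scale) and in YPD (y axis, log scale). Each point is a gene, coloured points belong to the lists in the key, the solid line marks equal levels and the dashed lines a 2-fold difference. Galactose genes lie far below the dashed lines, GAL1 at 7446 and 12.1 FPKM, and 4 hexose transporters lie far above them.

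Galactose genes were far lower in YPD, and GAL1 had the lowest ratio of the 6126 genes. Of 11 measured genes 9 were lower in YPD and none higher, beside 13.1% and 13.9% of all measured genes. The median log2 ratio of the 11 was -3.92 against -0.01 over all measured genes. GAL1, the galactokinase (chrII:279021-280607, sacCer3), stood at 7446 FPKM in YPGR and 12.1 FPKM in YPD, a log2 ratio of -9.15. GAL7, the uridylyltransferase of the pathway, stood at 4225 and 7.64 FPKM, a log2 ratio of -8.93. GAL10, which encodes the epimerase, stood at 2956 and 13.3 FPKM, and GAL2, the galactose permease, at 1845 and 10.2 FPKM, with log2 ratios of -7.69 and -7.36.

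The regulators of the pathway differed by less than GAL1, GAL7, GAL10 and GAL2. GAL3, the galactose sensor, stood at 138 FPKM in YPGR and 9.45 FPKM in YPD, a log2 ratio of -3.74. GAL80, the inhibitor of Gal4, stood at 215 and 70.5 FPKM, a log2 ratio of -1.59. GAL4 itself, the activator, stood at 26.1 and 13.8 FPKM, a log2 ratio of -0.87, within 2-fold. Of the phosphoglucomutases, PGM2 had a log2 ratio of -3.92, from 629 to 40.7 FPKM, whereas its paralog PGM1 stood at 88.2 and 98.3 FPKM, a log2 ratio of 0.16. GCY1, a reductase that is also a Gal4 target, had a log2 ratio of -4.80, though its row overlaps another. All 11 ratios lay within 2-fold of those in the WT pair, whose median was -4.18.

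The Gal4 binding motif, CGG and CCG spaced by 11 bases of any kind, was searched on both strands in the 500 bp before each annotated gene start of the RefSeq S288C genome, the assembly behind sacCer3. It occurred before 9 of the 11 galactose genes and before 2.98% of the 6000 protein-coding genes searched. PGM1 and PGM2 had no match in this window. The stretches are shown because the number of matches and the ratio can be read together, with matches in capitals:
GAL1 (chrII:278560-278629, + strand): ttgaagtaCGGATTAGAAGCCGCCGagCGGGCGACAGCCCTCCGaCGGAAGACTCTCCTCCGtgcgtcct
GAL2 (chrXII:289788-289908, + strand): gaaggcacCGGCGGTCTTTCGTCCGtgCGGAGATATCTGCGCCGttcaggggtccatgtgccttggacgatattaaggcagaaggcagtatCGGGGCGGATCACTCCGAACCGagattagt
GAL7 (chrII:275695-275727, - strand): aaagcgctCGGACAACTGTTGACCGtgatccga
GAL3 (chrIV:463138-463170, + strand): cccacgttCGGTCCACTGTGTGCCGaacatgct
GAL80 (chrXIII:171414-171446, + strand): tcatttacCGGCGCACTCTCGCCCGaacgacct
GAL1 held 3 matches, which lie in the region it shares with the divergent GAL10, and GAL2 held 4, of which a pair overlap. GAL7, GAL3 and GAL80 held 1 match each, and their log2 ratios ran from -8.93 for GAL7 to -1.59 for GAL80. GCY1, LAP3 and GAL4, not shown, also held 1 match each, with log2 ratios of -4.80, -1.21 and -0.87, the last within 2-fold.

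Hexose transporters differed in both directions. Of 16 listed genes 9 were measured, 4 of them higher in YPD and 2 lower, beside 13.9% and 13.1% of all measured genes. The median log2 ratio of the 9 was 0.34. The 2 lower were HXT6 and HXT17. HXT17 stood at 7.21 FPKM in YPGR and 3.09 FPKM in YPD, a log2 ratio of -1.01, at the limit, against -0.94 in the WT pair. HXT2, a high-affinity transporter, stood at 21.3 FPKM in YPGR and 1017 FPKM in YPD, a log2 ratio of 5.51. HXT3, a low-affinity transporter, stood at 32.6 and 1040 FPKM, a log2 ratio of 4.95. The 2 therefore reached like levels in YPD from like levels in YPGR. HXT4 stood at 6.19 and 199 FPKM, a log2 ratio of 4.80, and HXT1, the classical low-affinity transporter of high glucose, at 6.48 and 122 FPKM, a log2 ratio of 4.04. In the WT pair HXT1 had a log2 ratio of 5.20, with 255 FPKM in YPD. HXT6 stood at 26.2 and 1.35 FPKM and its near-identical neighbour HXT7 at 14.8 in each medium, so how fragments were divided between them is uncertain.

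Rgt1, the repressor of HXT genes in the absence of glucose, binds the motif CGGANNA. This short motif, searched likewise on both strands, lay before 7 of the 9 measured HXT genes and before 42.0% of all genes. Over the measured genes it lay before 44.1% of those higher in YPD and 47.6% of those lower. It also lay before 72.7% of the galactose genes, most of which were lower. At least 2 matches lay before 55.6% of the HXT genes and 11.6% of all genes. Matches to it can overlap those of the Gal4 motif, which begins with the same letters. The HXT2 promoter, which had the highest ratio of the family, is shown with its pair of matches in capitals, the second read on the opposite strand:
HXT2 (chrXIII:287641-287696, + strand): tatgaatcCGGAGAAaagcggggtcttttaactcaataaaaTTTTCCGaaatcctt

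Among 26 measured genes of glucose sensing and repression, 1 was higher in YPD and 10 were lower, with a median log2 ratio of -0.53. STD1, which acts with Rgt1 in the glucose-sensing pathway, stood at 2.19 FPKM in YPGR and 69.6 FPKM in YPD, a log2 ratio of 4.47. CAT8, an activator of gluconeogenic genes, stood at 32.0 and 5.25 FPKM, a log2 ratio of -2.40. SIP2, a subunit of the Snf1 kinase, stood at 130 and 17.3 FPKM, a log2 ratio of -2.84. HXK2, the main hexokinase in glucose, stood at 716 and 1397 FPKM, a log2 ratio of 0.96. MIG1 itself stood at 41.8 and 46.6 FPKM, a log2 ratio of 0.15; it is named for its role, after its value was seen. Among 9 measured sucrose and maltose genes 1 was higher and 3 were lower, beside 13.9% and 13.1% of all genes, with a median of -0.37. SUC2, the invertase that splits sucrose and raffinose, stood at 194 and 121 FPKM, a log2 ratio of -0.68, within 2-fold.

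**Figure D2:**
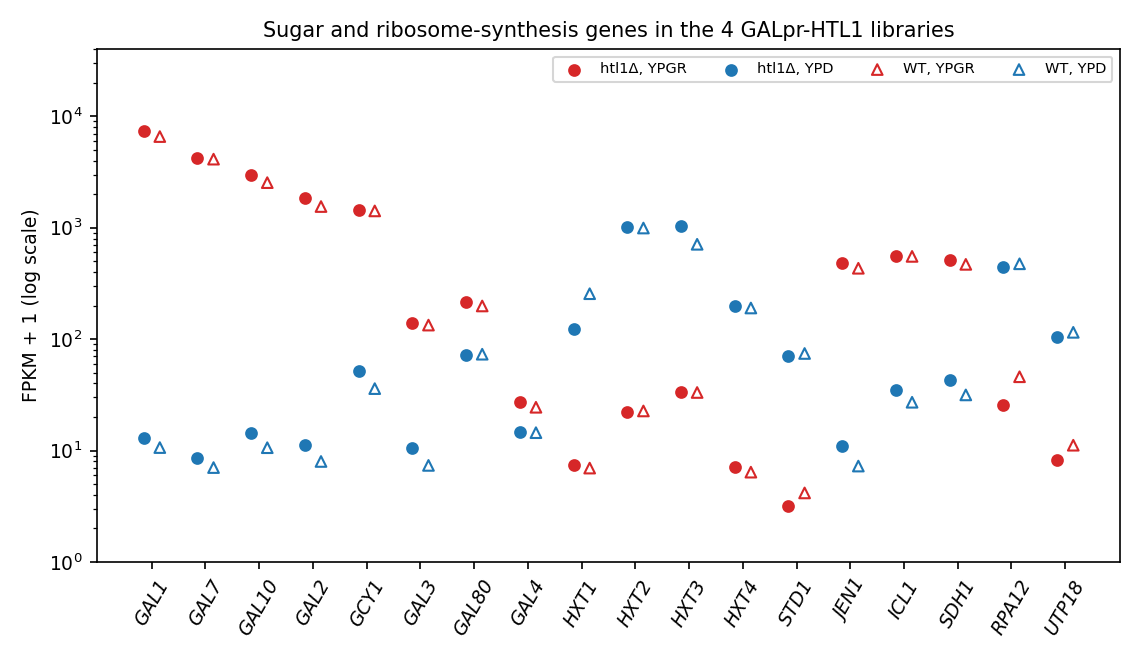
Levels of 18 sugar, respiratory and ribosome-synthesis genes in the 4 GALpr-HTL1 libraries, as FPKM + 1 on a log scale; filled circles are the htl1Δ libraries and open triangles the WT libraries, red in YPGR and blue in YPD, 1 library each. In every gene shown the YPGR and YPD values fall in the same order in both pairs, for example HXT2 at 21.3 and 1017 FPKM in the htl1Δ pair.

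Genes for growth on non-fermentable carbon were lower in YPD. All 19 measured genes of the glyoxylate cycle, gluconeogenesis and uptake of small acids were at least 2-fold lower, beside 13.1% of all measured genes. The median log2 ratio of the 19 was -2.22. JEN1, the lactate permease, stood at 485 FPKM in YPGR and 10.0 FPKM in YPD, a log2 ratio of -5.46. ICL1, the isocitrate lyase of the glyoxylate cycle, stood at 556 and 33.8 FPKM, and MLS1, the malate synthase of the same cycle, at 68.7 and 3.44 FPKM, a log2 ratio of -3.97. PCK1, the first enzyme of gluconeogenesis, stood at 103 and 7.70 FPKM, a log2 ratio of -3.58. The member nearest to the 2-fold limit was the carnitine acetyltransferase CAT2, with a log2 ratio of -1.06.

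The mitochondrial side of respiration was lower as well. All 16 measured TCA cycle genes were lower in YPD, with a median log2 ratio of -2.26. Among all measured genes the share lower was 13.1%. SDH1, the flavoprotein of succinate dehydrogenase, stood at 518 and 42.0 FPKM, a log2 ratio of -3.59, and MDH1, the mitochondrial malate dehydrogenase, at 1364 and 175 FPKM, a log2 ratio of -2.96. Of 35 respiratory chain and ATP synthase genes 34 were lower, with a median of -1.93. COX5A, a cytochrome oxidase subunit, stood at 1359 and 198 FPKM, a log2 ratio of -2.77, and NDI1, the internal NADH dehydrogenase, at 481 and 70.0 FPKM, a log2 ratio of -2.76. This list took 2.99% of the summed FPKM in YPGR and 0.673% in YPD. Mitochondrial ribosomal proteins, by contrast, were within 2-fold for 62 of 64 genes, with a median of -0.50. In peroxisomal fatty acid oxidation 9 of 17 genes were lower, with a median of -1.06, led by the acyl-CoA oxidase gene POX1 at 16.1 and 4.14 FPKM.

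Glycolysis genes were mostly within 2-fold. Of 16 measured genes 12 were within 2-fold, 1 was higher and 3 were lower, with a median log2 ratio of -0.16. The share past 2-fold was 25%. Over all measured genes 13.9% were higher and 13.1% lower, together a share near that of the list. TDH1, a minor glyceraldehyde-3-phosphate dehydrogenase, stood at 3565 and 546 FPKM, a log2 ratio of -2.70, and PYK2, the minor pyruvate kinase, at 138 and 26.4 FPKM, a log2 ratio of -2.35. ENO1 had a log2 ratio of -2.08 and its near-identical paralog ENO2 one of 0.63. PFK27, which makes the glycolytic activator fructose-2,6-bisphosphate, stood at 36.2 and 145 FPKM, a log2 ratio of 1.98. Among 16 ethanol and acetate genes 2 were higher and 6 lower, with a median of -0.52. ALD6, the cytosolic acetaldehyde dehydrogenase, stood at 139 and 395 FPKM, a log2 ratio of 1.49 against 3.96 in the WT pair. Of 9 glycerol genes 1 was higher and 4 were lower, among them the kinase gene GUT1 with a log2 ratio of -1.29 and the phosphatase gene GPP1 with one of 1.18.

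Storage carbohydrate genes were lower in YPD for 15 of 18 members, beside 13.1% of all measured genes. The median log2 ratio of the 18 was -1.78. GLC3, the glycogen branching enzyme, stood at 601 and 31.8 FPKM, a log2 ratio of -4.20. GSY2, the main glycogen synthase, stood at 540 and 49.7 FPKM, a log2 ratio of -3.41. GDB1, the debranching enzyme, stood at 68.7 and 9.72 FPKM, a log2 ratio of -2.70. Synthesis and breakdown enzymes were thus lower together, and PIG1, a regulatory subunit, was the single member above 0, with a log2 ratio of 0.63.

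General stress genes were lower for 15 of 23 members and higher for 3, with a median log2 ratio of -1.35. OM45, a mitochondrial outer membrane protein, stood at 715 and 89.3 FPKM, a log2 ratio of -2.99. DCS2, a regulator of mRNA decapping, stood at 160 and 21.6 FPKM, a log2 ratio of -2.84. On the other side HSP12, a small membrane-associated heat shock protein, stood at 169 FPKM in YPGR and 617 FPKM in YPD, a log2 ratio of 1.87. SIP18, a desiccation-related protein, stood at 16.7 and 97.5 FPKM, a log2 ratio of 2.48, though its locus is under 300 bp. In the WT pair HSP12 stood at 344 and 76.0 FPKM, a log2 ratio of -2.16. Of 23 chaperones 4 were higher and 4 lower, beside 13.9% and 13.1% of all genes, with a median of -0.08. HSP104, the disaggregase, had a log2 ratio of -1.72 and SSA2, a cytosolic Hsp70 with near-identical relatives, one of 1.58.

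The stress response element CCCCT, bound by Msn2 and Msn4, lay in the 500 bp before 20 of 23 general stress genes (87.0%) and 14 of 18 glycogen and trehalose genes (77.8%), on either strand. It lay before 34.1% of all genes, before 58.0% of the measured genes lower in YPD and before 23.2% of those higher. HSP12 is shown because it carries 5 matches yet its ratio lay opposite to most of its list:
HSP12 (chrVI:106813-107078, + strand): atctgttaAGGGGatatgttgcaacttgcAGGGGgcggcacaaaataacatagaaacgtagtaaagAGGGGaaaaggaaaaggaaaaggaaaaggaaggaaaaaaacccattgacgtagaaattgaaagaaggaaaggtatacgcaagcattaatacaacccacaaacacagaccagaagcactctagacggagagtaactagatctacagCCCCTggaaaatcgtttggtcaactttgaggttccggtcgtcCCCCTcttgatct
Capitals mark the element, read as AGGGG where it lies on the opposite strand. Mig1 motifs, CCCCGC or CCCCAC on either strand, lay before 21.5% of the genes lower in YPD, 10.8% of those higher and 13.6% of all genes. They also lay before 7 of the 9 measured hexose transporters.

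**Figure D3:**
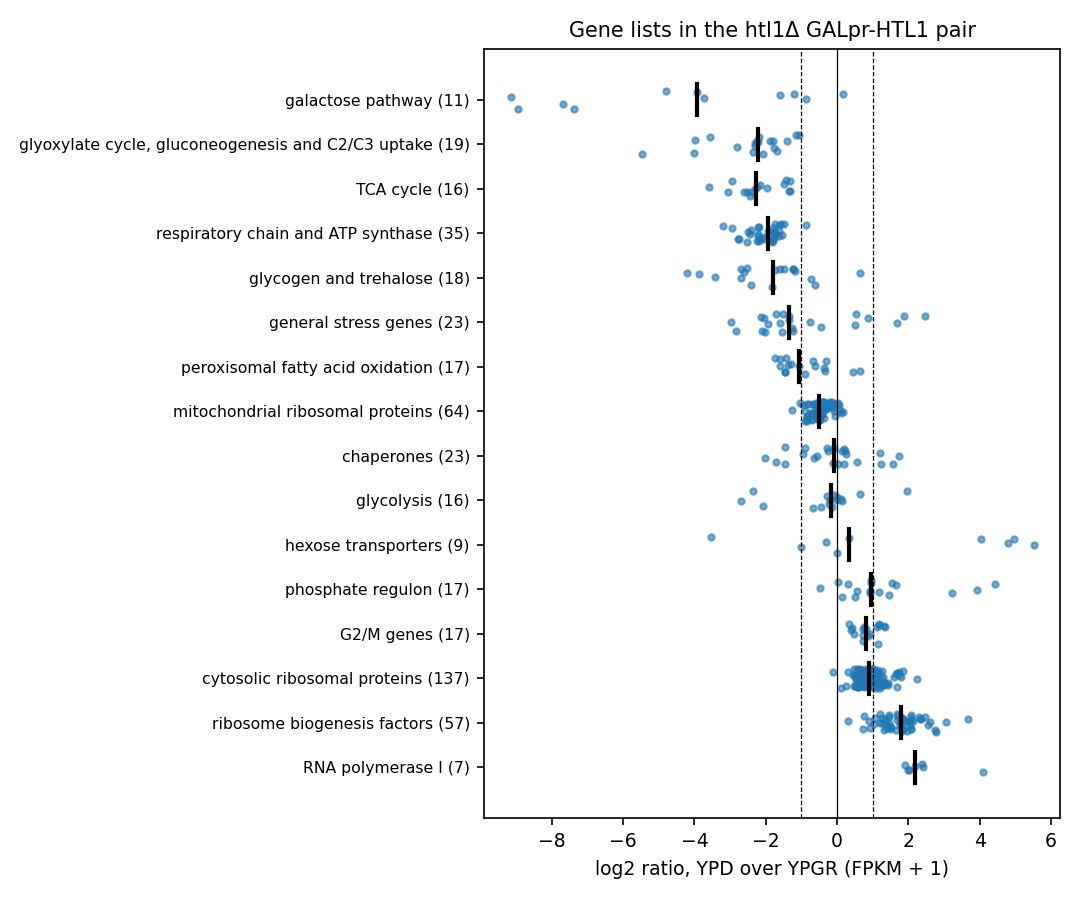
Log2 ratio of YPD over YPGR (x axis) for the measured members of 16 gene lists in the htl1Δ GALpr-HTL1 pair, with the number of members in brackets. Each point is a gene, black bars are list medians and dashed lines mark a 2-fold difference; vertical scatter within a list has no meaning. Medians run from -3.92 for the galactose genes to 2.19 for RNA polymerase I.

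Genes that make ribosomes were higher in YPD. Of 57 measured ribosome biogenesis factors 52 passed the 2-fold limit upward and 0 downward, beside 13.9% and 13.1% of all measured genes. The median log2 ratio of the 57 was 1.79, and all 57 ratios were above 0. UTP18, a component of the small-subunit processome, stood at 7.27 FPKM in YPGR and 104 FPKM in YPD, a log2 ratio of 3.67. RRP36, needed for early cleavage of the ribosomal RNA precursor, stood at 9.84 and 89.5 FPKM, a log2 ratio of 3.06. UTP9 and UTP15, processome components that also act in ribosomal DNA transcription, both had a log2 ratio of 2.76.

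All 7 measured RNA polymerase I genes were higher, with a median log2 ratio of 2.19. The share higher among all measured genes was 13.9%. RPA190, the largest subunit, stood at 30.4 and 116 FPKM, a log2 ratio of 1.89, and RPA135, the next largest, at 52.5 and 212 FPKM, a log2 ratio of 2.00. RPA12, a small subunit, stood at 24.7 and 441 FPKM, a log2 ratio of 4.10. RRN3, the initiation factor of the polymerase, stood at 8.89 and 51.04 FPKM, a log2 ratio of 2.40.

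Cytosolic ribosomal proteins differed by less but together. The limit of 2-fold was passed upward by 45 of 137 measured genes of the list and downward by 0. For all measured genes these shares were 13.9% and 13.1%. The list also holds RPP1, which is not a ribosomal protein gene. The median log2 ratio of the 137 was 0.88, and 136 had a ratio above 0. The exception was RPL15B, at 129 and 120 FPKM. RPS9A stood at 124 and 447 FPKM, a log2 ratio of 1.85. Many of these genes have near-identical paralogs, so the share of each copy is uncertain. The list took 28.1% of the summed FPKM in YPGR and 41.6% in YPD. In the WT pair the medians were 1.61 for ribosome biogenesis, 2.06 for RNA polymerase I and 0.94 for ribosomal proteins.

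Promoters of ribosome biogenesis genes are known for a pair of motifs, PAC (GATGAG) and RRPE (AAAATTTT). PAC lay before 82.5% of the 57 factors and 28.3% of all genes, and RRPE before 63.2% and 12.4%, on either strand in the same 500 bp window. Both together lay before 31 of 57 factors (54.4%) and 5.98% of all genes. All 7 RNA polymerase I genes had PAC and 6 had RRPE. Over the measured genes, PAC lay before 50.3% of those higher in YPD and 21.2% of those lower, and RRPE before 33.7% and 5.06%. Of the promoters of the ribosomal protein list, which includes RPP1, 21.2% held PAC and 12.4% RRPE. The stretches below show how closely the motifs sit, in capitals, with PAC read as CTCATC on the opposite strand:
RPA190 (chrXV:960757-960833, + strand): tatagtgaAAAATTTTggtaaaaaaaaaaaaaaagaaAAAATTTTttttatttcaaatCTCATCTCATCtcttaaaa
RPA135 (chrXVI:581287-581339, - strand): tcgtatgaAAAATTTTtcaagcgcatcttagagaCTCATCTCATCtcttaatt
RRP36 (chrXV:851940-851974, - strand): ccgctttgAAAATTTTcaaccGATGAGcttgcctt
UTP9 (chrVIII:491757-491835, + strand): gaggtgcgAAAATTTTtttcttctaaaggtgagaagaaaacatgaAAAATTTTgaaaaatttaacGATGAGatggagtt
In RPA190 and RPA135 a pair of PAC matches overlap. Each stretch shown holds both motifs, which not every gene named above does. RPA12 and UTP18, with the highest ratios of their lists (4.10 and 3.67), held PAC but no RRPE. UTP15 held RRPE but no PAC. These matches describe the sequences and do not show that a factor was bound.

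**Figure D4:**
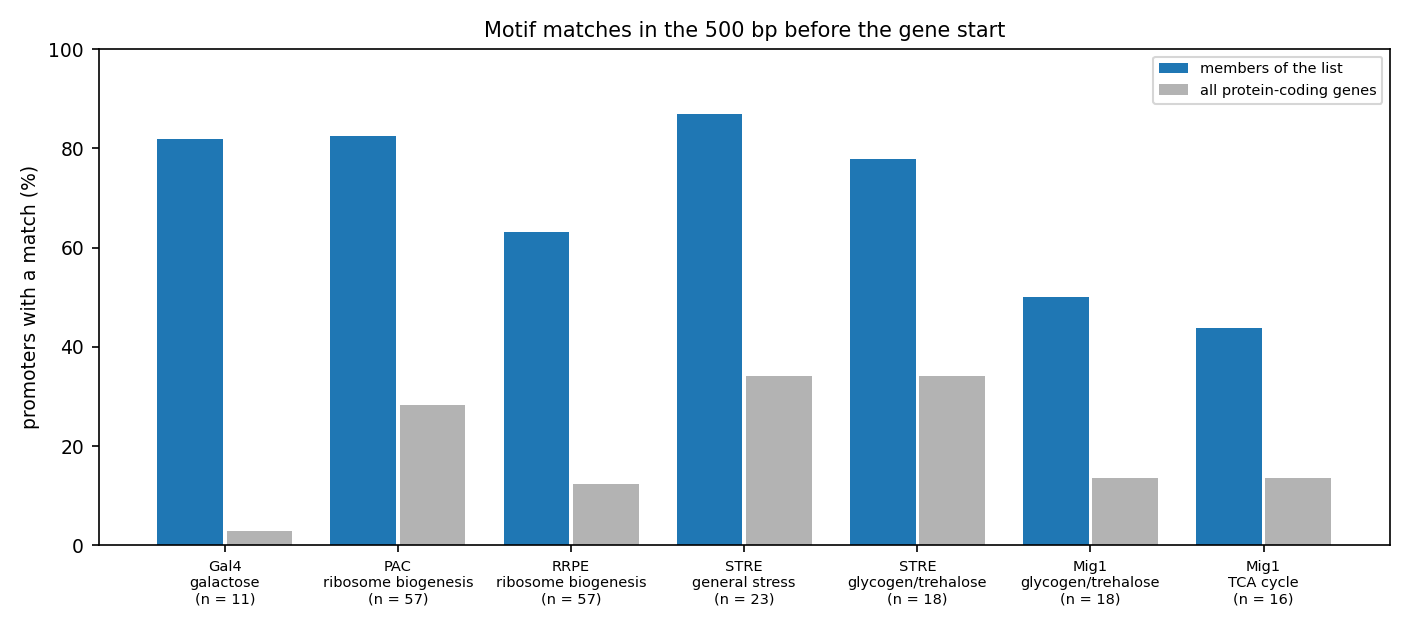
Share of promoters with at least 1 motif match in the 500 bp before the gene start (y axis, percent), for list members (blue) and for all 6000 protein-coding genes (grey), with the number of list members under each pair of bars. The Gal4 motif lay before 81.8% of the galactose genes and 2.98% of all genes.

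Nutrient pathways outside carbon had medians from -0.59 to 0.94. Over all measured genes 13.9% were higher in YPD and 13.1% lower. In the phosphate regulon 7 of 17 genes were higher and 0 lower, with a median log2 ratio of 0.94. PHO5, the secreted acid phosphatase, stood at 171 and 1601 FPKM, a log2 ratio of 3.22, and in the WT pair at 194 and 296 FPKM, one of 0.61. PHO11 and PHO12, near-identical acid phosphatases, had log2 ratios of 4.44 and 3.91, with fragments that may be divided either way. In the zinc regulon 2 of 8 genes were higher, with a median of 0.81, led by the transporter gene ZRT1 at 84.0 and 446 FPKM. In the iron regulon 3 of 25 genes were higher and 4 lower, shares near those of all genes, with a median of 0.03. FIT3, a cell wall mannoprotein that retains siderophore iron, stood at 3122 and 69.0 FPKM, a log2 ratio of -5.48.

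The counts in this paragraph stand beside 13.9% of all measured genes higher and 13.1% lower. Of 43 amino acid synthesis genes under Gcn4 9 were higher and 4 lower, with a median of 0.07, a count that includes LYS2. Sulfur and methionine genes were higher for 1 of 24, which was MET17, and lower for 5, with a median of -0.47. MET6, the methionine synthase, stood at 415 and 58.5 FPKM, a log2 ratio of -2.81 against -0.53 in the WT pair. Of 14 amino acid permeases 2 were higher and 3 lower, with a median of -0.33, and AGP1, a broad-range permease, stood at 405 and 40.2 FPKM. Of 15 purine synthesis genes 1 was higher and 3 were lower, with a median of -0.41. Ergosterol synthesis was within 2-fold for 20 of 23 genes, with a median of 0.05. Of 13 heme- and oxygen-regulated genes 2 were higher and 2 lower, with a median of -0.59. Among the anaerobic wall mannoproteins 1 of 7 was lower, the gene TIR1 with a log2 ratio of -1.70.

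RSC itself showed little difference beyond HTL1. The other 16 subunit genes were all within 2-fold, from LDB7 with a log2 ratio of -0.49 to RSC3 with one of 0.84, and the median of the 17 was 0.07. Of 11 histone genes 2 were lower (18.2%, beside 13.1% of all genes) and none higher, with a median of -0.52. HTA1, an H2A gene, stood at 3751 and 1788 FPKM, a log2 ratio of -1.07, and HHT2, an H3 gene, at 5769 and 2797 FPKM, one of -1.04. Histone genes come in near-identical pairs, so the share of each copy is uncertain. The WT pair had a histone median of 0.24.

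Cell cycle genes had medians above that of all genes. Of 20 genes of the G1/S wave 8 were higher (40%, beside 13.9% of all genes) and 0 lower, with a median log2 ratio of 0.69, among them the cyclin gene PCL1 at 16.2 and 79.1 FPKM and RNR1, the ribonucleotide reductase subunit, at 27.1 and 94.1 FPKM. Of 17 G2/M genes 6 were higher (35.3%) and 0 lower, with a median of 0.80, led by CHS2, the septum chitin synthase, at 20.7 and 54.7 FPKM. With a pseudocount of 10 FPKM these shares were 15% and 5.88%. At that setting 643 of the 6126 measured genes were higher, so the G2/M share lay below that of all genes. Daughter-cell and cell separation genes had a median of -0.29, with 2 of 11 lower (18.2%, beside 13.1% of all genes) and none higher. DSE1, a daughter-specific wall protein, stood at 138 and 53.0 FPKM, a log2 ratio of -1.36. Of 24 cell wall genes 1 was higher and 6 were lower, with a median of -0.47, and CWP1, a wall mannoprotein, stood at 1102 and 292 FPKM. Of 8 flocculins and their regulators 1 was higher, FLO11, at 2.26 and 6.42 FPKM.

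The mating types given at the outset were read from the a-specific and alpha-specific genes. The values of these genes are therefore no separate check of those types. The a-specific list had a median log2 ratio of 5.26, against -0.62 in the WT pair, and the alpha-specific list one of -3.58, against 1.35. BAR1, the protease that degrades alpha-factor, stood at 6.13 and 100.4 FPKM, and STE6, the a-factor exporter, at 13.1 and 82.3 FPKM. The genes MFA1 and MFA2 for a-factor precursors stood at 114 and 60.8 FPKM in YPGR and at 16889 and 22177 FPKM in YPD, on loci too short for reliable FPKM. MF(ALPHA)1, the main alpha-factor precursor gene, stood at 1791 and 10.9 FPKM, a log2 ratio of -7.23. Of 15 pheromone-response genes, which both mating types use, 3 were higher and 2 lower, with a median of 0.22. Over all measured genes 13.9% were higher and 13.1% lower. Of the 9 listed marker genes 7 were measured, 2 of them higher, MET17 and LYS2, and 2 lower, ADE2 and URA3.

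The repressor alpha2 silences a-specific genes in alpha cells by way of an operator, of which CATGTAATT is a conserved part. It lay, on either strand, before 3 of the 7 a-specific genes and 0.517% of all genes. These are the genes concerned, with matches in capitals and the second BAR1 match on the opposite strand:
BAR1 (chrIX:322070-322115, + strand): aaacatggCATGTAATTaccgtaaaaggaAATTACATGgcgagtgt
STE6 (chrXI:46491-46515, - strand): ttttttgcCATGTAATTacctaata
AGA2 (chrVII:437115-437139, - strand): actgaaacCATGTAATTtccgaata

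The WT pair was set beside the htl1Δ pair to see where its medium ratios differed. In the WT pair 812 of 6080 genes were higher in YPD (13.4%) and 783 lower (12.9%). Over the 6047 genes measured in both, the ratios had a Pearson correlation of 0.76 and a Spearman correlation of 0.84, a description across genes, which are not independent replicates. Of 808 genes higher in the htl1Δ pair 603 (74.6%) were also higher in the WT pair, which is 75.6% of the 798 higher there. Of 796 genes lower in the htl1Δ pair 558 (70.1%) were also lower in the WT pair, 72.1% of its 774. Opposite calls were made for 11 and 7 genes. The htl1Δ ratio was at least 2-fold above the WT ratio for 248 genes (4.1%) and at least 2-fold below it for 161 (2.66%). With a pseudocount of 10 FPKM these counts were 133 and 102, and with at least 20 FPKM in 1 library the first was 165. No test of these differences is possible with 1 library per medium and strain.

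**Figure D5:**
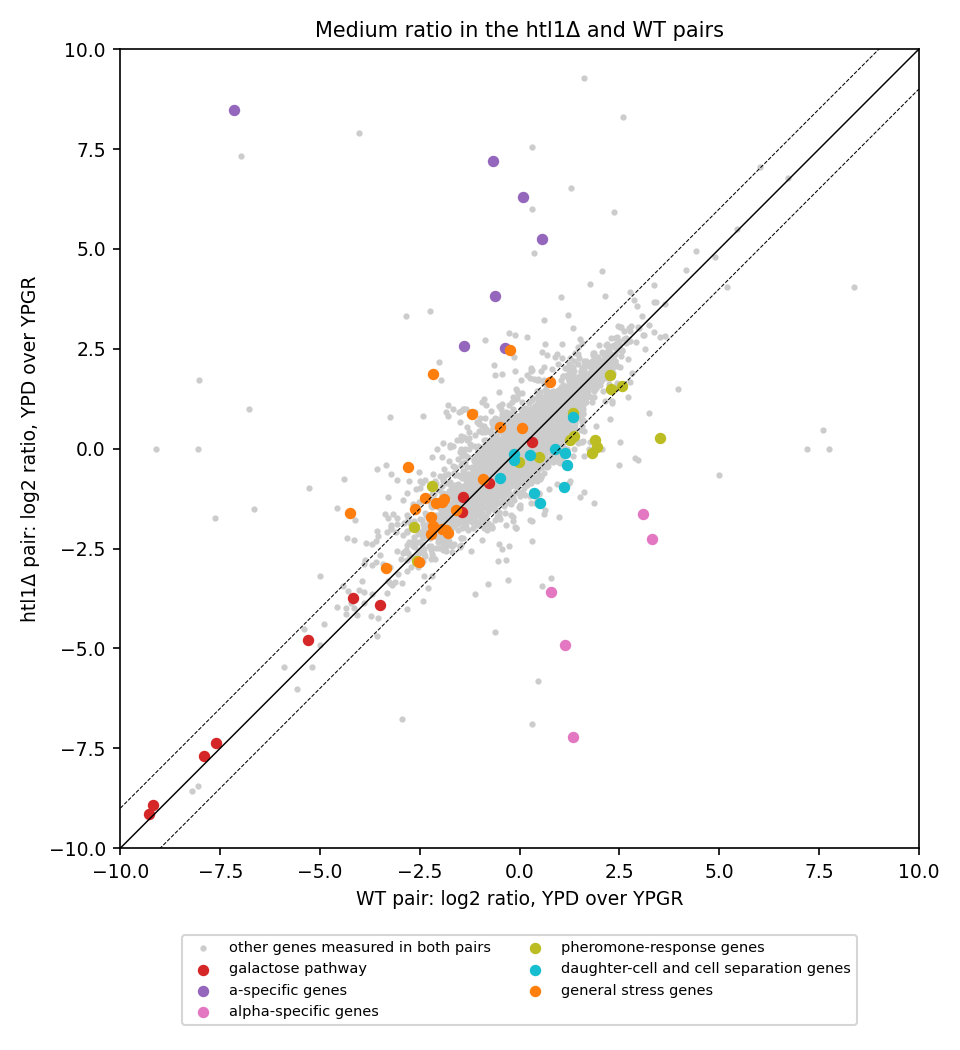
Log2 ratio of YPD over YPGR in the WT pair (x axis) and in the htl1Δ pair (y axis) for the 6047 genes measured in both. Each point is a gene, the solid line marks equal ratios and the dashed lines a 2-fold difference between pairs. Galactose genes lie along the line, with GAL1 at -9.27 and -9.15, while a-specific genes lie above it and alpha-specific genes below it.

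Genes on loci of at least 300 bp that carry a symbol beside their systematic name and were listed above 0 were ordered by this difference. Of the 8 farthest above the WT ratio 4 were a-specific, and of the 8 farthest below it 5 were alpha-specific. Some rows outside these limits lay farther off, such as the row snR24, with a difference of 5.69. That row is named for a small nucleolar RNA but spans 1233 bp and overlaps another row, so its value is uncertain. The others above were HSP12, SPG4, a stationary-phase gene, PIR3, a wall protein, and VAM10, whose row overlaps another. PIR3 stood at 119 and 89.5 FPKM, a log2 ratio of -0.40, and in the WT pair at 163 and 15.1 FPKM, one of -3.35. The others below were AGA1, the anchor of the agglutinin, PHD1, a regulator of filamentous growth, and its neighbour MMO1. PHD1 stood at 76.8 and 57.3 FPKM, a log2 ratio of -0.42, and in the WT pair at 67.7 and 383 FPKM, one of 2.48.

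Beside the a-specific and alpha-specific genes, 7 lists had a median difference from the WT ratio of at least 0.6 in size; they were picked after their values were seen. For 23 general stress genes the median difference from the WT ratio was 0.61, with 8 genes at least 2-fold above and none below, beside 4.1% above among all genes and a median of -0.03. For 11 daughter-cell and cell separation genes it was -0.89, with 5 below and none above, beside 2.66% below among all genes. For 15 pheromone-response genes it was -0.80, with 6 below and 1 above, and 13 of the 18 measured in the WT pair were higher there in YPD. For 11 histone genes it was -0.69, with no gene past 2-fold. Heme- and oxygen-regulated genes (-0.61 over 13 genes), flocculins and their regulators (-0.69 over 5) and sucrose and maltose genes (0.67 over 8) had 2, 1 and 1 genes past 2-fold. These genes lay below the WT ratio in the heme and flocculin lists and above it in the sucrose and maltose list. The authors' tables of htl1Δ against WT within a medium share these libraries, and their values stand here side by side. In YPD the median log2 ratio of htl1Δ over WT was 0.41 for stress, -0.53 for daughter-cell, -1.16 for pheromone-response and -0.71 for histone genes. In YPGR the same medians were -0.19, 0.22, 0.02 and -0.01. Over 6081 genes in YPD the htl1Δ value exceeded the WT value by 2-fold or more for 230 (3.78%) and lay as far under it for 125 (2.06%). Over 6061 genes in YPGR these counts were 44 (0.726%) and 58 (0.957%). The YPD library of the htl1Δ pair is the single a-type library of the 4, and its part in these differences was not tested.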

How the data were processed

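Per the labels' protocols, RNA from a RiboPure yeast kit was selected for poly(A) with oligo-dT beads and read on an Illumina HiSeq. TopHat, Cufflinks and Cuffdiff were used on sacCer3, per the submitters' processing notes; for their versions and for strand, the sources used here give nothing. The authors deposited FPKM per gene for both libraries of each table, with p-values and q-values of their own comparison, per the file headers. They scaled each table separately, so ratios were taken within a table. The htl1Δ pair has 6931 rows, of which 115 name several genes; of the single-gene rows, 565 had a status other than OK and 125 were under 5 FPKM in both libraries. Ratios are log2((FPKM + 1)/(FPKM + 1)), called at 2-fold. Of the measured genes 319 lie on loci under 300 bp and 930 overlap another row, and both kinds are uncertain. Sampling depth was estimated from whole multiples among low FPKM values (96.8% to 98.1% whole in the 4 libraries, within 0.1 fragments), and covers counting error only.

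The members and the 40 gene lists were chosen with earlier results of these data known. Genes named are HTL1, the 15 highest and 15 lowest ratios on loci of at least 300 bp, all members of lists of up to 12 genes, up to 6 past 2-fold and the 2 most opposed members of longer lists, and, under the same limit of locus length, the 8 farthest from the WT ratio on each side; the highest, lowest and farthest were taken only from genes with a symbol beside their systematic name and listed above 0 in the libraries; CAT2, MIG1 and the authors' TMA10 were added after their values were seen. Promoters came from the RefSeq S288C genome; 5859 gene IDs matched, 5381 with the same coordinates. Alternatives were other pseudocounts, FPKM limits, centring, rows, statuses and locus lengths, the leaving out of mating and marker genes, and the authors' call. Work used Python 3.11.15 with pandas 2.3.3, NumPy 2.4.6, SciPy 1.17.1 and Matplotlib 3.10.9.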

Additional observations from a re-analysis of the deposited data

Results flagged for a closer look

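A gene was picked out where the htl1Δ and WT pairs differed by at least 2-fold in opposite directions between YPGR and YPD and the gene belongs to those named in the text. None of these differences was tested, since each pair has 1 library per medium. The alpha-specific genes MF(ALPHA)1, STE3, MF(ALPHA)2 and SAG1 had log2 ratios of YPD over YPGR of -7.23, -4.91, -2.26 and -1.64 in the htl1Δ pair, and of 1.35, 1.14, 3.31 and 3.10 in the WT pair. The a-specific genes STE6 and MFA2 had log2 ratios of 2.57 and 8.49 in the htl1Δ pair and of -1.38 and -7.15 in the WT pair, where MFA2 was listed at 0 in YPD. HSP12, a stress gene, had a log2 ratio of 1.87 in the htl1Δ pair and of -2.16 in the WT pair.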

How the results depend on the processing

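No paired analysis was possible because each group has 1 library and the labels give no replicate numbers, and for the same reason no library could be left out. The counts of 851 genes higher and 805 lower in YPD ran from 643 to 885 and from 592 to 828 over other pseudocounts, FPKM limits, centring, row choices and locus lengths. Joined with the authors' call they were 6 and 8. The genes at least 2-fold above the WT ratio numbered 133 with a pseudocount of 10 FPKM and 165 with at least 20 FPKM, and those below it numbered 102 with a pseudocount of 10 FPKM. The Pearson correlation with the WT pair ran from 0.69 to 0.83. Shares of members past 2-fold moved with a pseudocount of 10 FPKM to 23.5% for peroxisomal fatty acid oxidation, 5.88% for G2/M genes, 15% for G1/S genes and 0% for flocculins. With at least 20 FPKM the share became 100% for hexose transporters and 0% for flocculins, and on loci of 300 bp or more it was 0% for RSC subunits, since HTL1 drops out. Joined with the authors' call the shares were 45.5% for galactose genes, 5.26% for the glyoxylate list, 4.17% for sulfur genes, 4% for iron genes, 14.3% for a-specific and for marker genes, and 0% for the other lists apart from hexose transporters and the mating-type loci, whose 1 measured row, HMRA1, carries the call. With a pseudocount of 10 FPKM, 23 of the 267 genes fixed for naming were no longer past 2-fold. The cause of the other moves was not tested. The direction of single-gene ratios was not put to a test by these alternatives. A pseudocount or an FPKM limit cannot change the sign of a ratio, and centring moved ratios only by their median of -0.01. One library per side limits all values, and loci under 300 bp or with overlapping rows are uncertain.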
